A study of Mus musculus with 14 samples.

Results

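Neurosphere lines and fibroblast lines that both lack intact H3f3a were compared across the transcriptome: 3 KO neurosphere lines against 5 KO mouse embryonic fibroblast (MEF) lines, 8 of the 14 libraries in the series. The members were chosen by label alone (KO genotype, cell type), with no use of a measured value. All lines came from E13.5 mouse embryos (E, embryonic day). Heads were grown as neurospheres, floating spheres of neural stem and precursor cells, and bodies freed of internal organs were grown as MEFs. Both groups carry the H3f3a KO allele of a knockout-first design, and neither received a treatment. The 3 WT neurosphere lines and 3 WT MEF lines, of the same age and handling, are set beside the KO lines where named. The design text calls every line independent, so the replicate is the line. Strain, sex, culture media and passage are not given. Cell type and culture conditions therefore cannot be told apart, nor can cell type and body part. The labels do not say whether a neurosphere line and a MEF line came from 1 embryo. Names within the deposit hint that some may have, and the lines are treated as independent here.

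H3f3a is 1 of a pair of mouse genes, with H3f3b, that encode histone H3.3, the H3 variant placed in chromatin outside DNA replication by chaperones such as HIRA and the DAXX-ATRX complex. Neural stem cells of the embryonic brain, the radial glia, line the ventricles, divide under Notch, FGF and EGF signals, and give rise to neurons, astrocytes and oligodendrocytes. In neurosphere culture such cells grow with progeny at several stages. MEFs are a mixed culture of mesenchymal cells that attach to plastic, spread, and secrete a collagen-rich matrix. Their contractile genes are driven in part by serum response factor and by YAP with its DNA-binding partners of the TEAD family.

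RNA was read from the 3′ end of polyadenylated transcripts (QuantSeq), so a gene's count depends on its transcript number and not on its length. Values are CPM, counts scaled to a common total of assigned reads, on 1 scale over all 14 libraries. A log2 difference is neurospheres minus MEFs, so a positive value means higher in neurospheres. The KO MEF libraries held 2080798 to 3030025 gene counts and the KO neurosphere libraries 1669406 to 2693861. Mitochondrial transcripts took 5.59% ± 0.204 (SD, n = 5) of counts in KO MEFs and 15.1% ± 1.15 (SD, n = 3) in KO neurospheres. The first principal component of the 8 libraries, with 79.2% of the variance, separated the cell types. KO MEFs 3 stood apart from the other MEF lines on the second component, which held 7.08% of the variance, and KO neurospheres 2 and 3 lay at opposite ends of the third, with 6.03%.

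The targeted gene was low in every KO line. H3f3a (chr1:180800832-180813943 in GRCm38, minus strand) was at 16.9, 18.9, 18.5, 7.29 and 15.1 CPM in KO MEFs 1 to 5 and at 59.1, 70.9 and 26.3 CPM in KO neurospheres 1 to 3. In WT lines it was at 847, 1427 and 855 CPM in MEFs and 2417, 2082 and 1970 CPM in neurospheres, so no KO line overlapped a WT line. A 3′ count does not show which part of the gene the remaining transcripts hold. Within the KO lines the remnant was higher in neurospheres (log2 difference 1.78, SE 0.37, edgeR adjusted p 0.00303), although limma on log2(TPM + 1) gave 0.96 with an adjusted p of 0.11. The other H3.3 gene, H3f3b (chr11:116021912-116027962, minus strand), was at 1376, 1541, 2202, 1119 and 1289 CPM in KO MEFs and 2438, 2003 and 2013 CPM in KO neurospheres. The groups overlapped through KO MEFs 3, and the difference did not pass (log2 difference 0.54, SE 0.22, edgeR adjusted p 0.0696, 95% interval 0.04 to 1.04). The exact two-sided permutation test gave p = 0.0893, where 56 splits allow 0.0179 at the lowest. Without KO MEFs 3 the log2 difference of H3f3b was 0.73 with an edgeR adjusted p of 0.00477.

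A large share of the transcriptome differed between the cell types in the KO lines. Of 11413 genes tested, 5892 (51.6%) passed an edgeR quasi-likelihood adjusted p of 0.05, with 2904 (25.4%) higher in neurospheres and 2988 (26.2%) lower. Differences of at least 2-fold were seen in 2319 genes higher and 2269 lower, and of at least 16-fold in 515 higher and 531 lower. A further measure of the distance is that 93 passing genes had no count in any KO MEF line and 237 had none in any KO neurosphere line. These shares are the background for every count below. A gene silent in a cell type enters the test only through the other cell type, so the filter fixes the direction of such a gene.

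The genes with the widest gaps higher in neurospheres are known from glia and their precursors. Olig1, a transcription factor of the oligodendrocyte lineage, was at 1558, 696 and 1138 CPM in the 3 neurosphere lines and had no count in any of the 5 MEF lines, a difference of at least 5051-fold when the MEF group is set to 3 counts. Its partner Olig2 was at 603, 356 and 696 CPM against 0 in all MEF lines (at least 2466-fold). Bcan, the brain proteoglycan brevican, was at 655, 473 and 478 CPM against 0 (at least 2392-fold). In all 3 genes every neurosphere line lay far above every MEF line. The glutamate receptor gene Grm5 was at 572, 403 and 626 CPM and Sox21, a factor of neural progenitors, at 404, 579 and 181 CPM, again with 0 in all MEF lines. Slc6a11, a GABA transporter, was at 994, 1278 and 561 CPM against a single count in 1 MEF line. Its ratio of 12510 has a 95% counting interval of 2272 to 499900, so the size is poorly fixed. Rfx4, Hepacam and Tmem229a were also among the 10 largest, all at 0 in MEFs and at up to 377 CPM in neurospheres.

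On the other side the widest gaps were in genes of matrix and contraction. Thbs1, the secreted matrix protein thrombospondin, was at 1873, 3405, 5073, 2952 and 3032 CPM in KO MEFs 1 to 5 and at 0 in all 3 neurosphere lines (at least 7558-fold lower). Acta2, smooth muscle actin, was at 2578, 4006, 1262, 3077 and 3024 CPM against 0 (at least 6453-fold lower), and Lox, which cross-links collagen, at 2037, 2037, 4339, 2167 and 2071 CPM against 0 (at least 5854-fold lower). The chains of the main fibrillar collagen were nearly absent from neurospheres. Col1a1 was at 7206, 5595, 7994, 6190 and 5122 CPM in MEFs and 0.826, 0 and 0.350 CPM in neurospheres. Those neurosphere values rest on 3 counts in all, so the ratio of 16380 carries a counting interval of 5083 to 72030. Col1a2 was at 8635, 5276, 7214, 6566 and 5479 CPM against 0, 0.601 and 0.700 CPM. Col3a1, Postn, Tagln, Cav1 and Ccn4 were at 0 in all neurosphere lines and at 160.2 to 4891 CPM in MEFs.

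**Figure D1:**
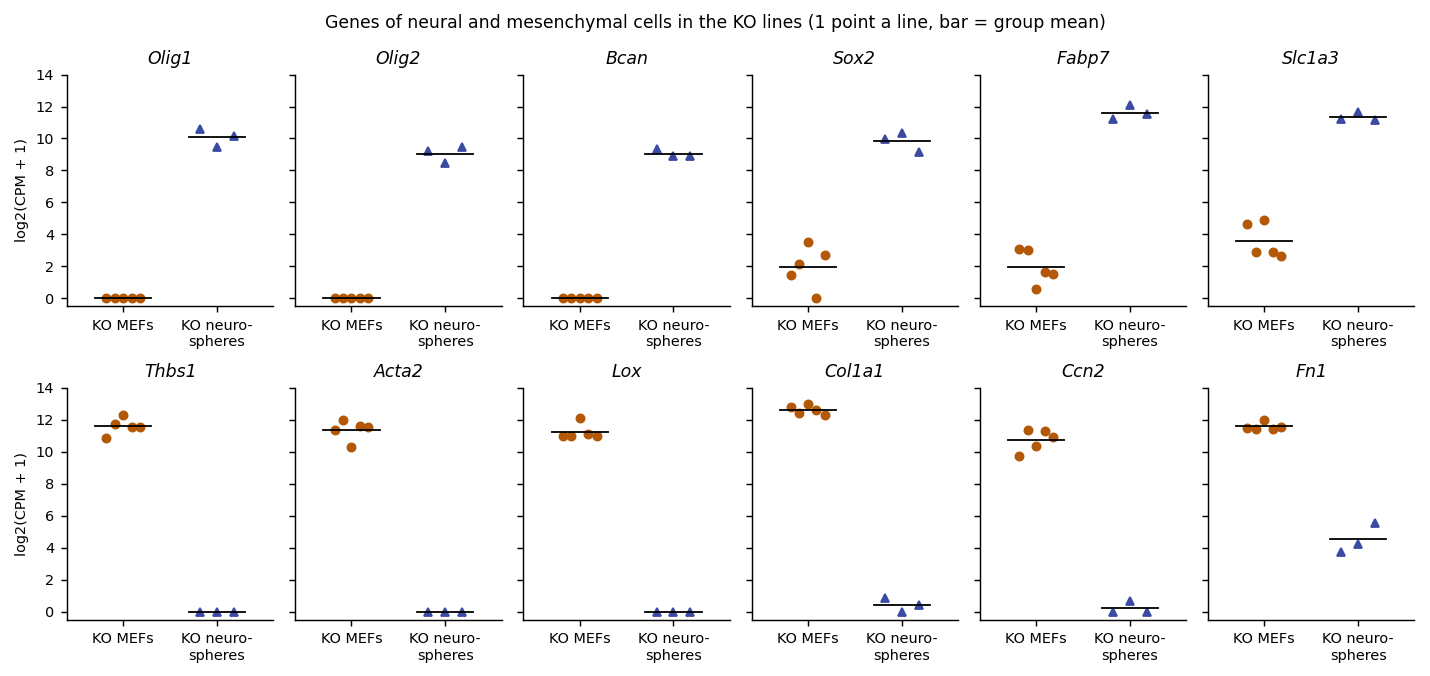
Level of 12 genes in each KO line, as log2(CPM + 1) on the vertical axis. Each point is 1 line, with KO MEFs 1 to 5 as circles, KO neurospheres 1 to 3 as triangles and a bar at the group mean. Olig1 to Slc1a3 sit high in neurospheres, Thbs1 to Fn1 sit high in MEFs, and the 2 cell types do not overlap in any panel. The genes were chosen with these values known.

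Markers matched both labels, and the neurospheres held transcripts of glia and young neurons as well as of stem cells. Of 19 neural stem cell and radial glia markers in the files 18 were tested, 15 were higher in KO neurospheres and 1 lower, with a median log2 difference of 6.04 against -0.01 over all genes tested. The stem cell factor Sox2 was at 982, 1287 and 578 CPM in neurospheres and 1.73, 3.43, 10.7, 0 and 5.66 CPM in MEFs (log2 difference 7.87, SE 0.73, edgeR adjusted p 3.15e-05). Fabp7, the fatty acid binding protein of radial glia, was at 2368, 4309 and 2934 CPM against 7.60, 7.20, 0.486, 2.08 and 1.89 CPM (log2 difference 9.65, SE 0.61, edgeR adjusted p 4.05e-06). Nes, the intermediate filament nestin, differed less, with 256, 226 and 449 CPM in neurospheres and 67.3, 149, 34, 141 and 128 CPM in MEFs (log2 difference 1.59, SE 0.44, edgeR adjusted p 0.0129). The call of Nes was lost without KO neurospheres 3 (edgeR adjusted p 0.0631). The exception was Tnc, the matrix protein tenascin C, which was higher in MEFs at 1690, 2044, 591, 2156 and 2083 CPM than in neurospheres at 85.5, 22.9 and 309.9 CPM (log2 difference -3.59, SE 0.80, edgeR adjusted p 0.00476). In whole cultures fewer cells of a type and less RNA per cell cannot be told apart.

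Glial and neuronal markers followed the neurospheres. Of 7 tested astrocyte markers 6 were higher and 0 lower (median 8.91, or 8.82 with genes at 0 set to the floor). Slc1a3, the glutamate transporter GLAST, was at 2402, 3298 and 2284 CPM against 24.5, 6.51, 28.7, 6.59 and 5.28 CPM. Gfap, the filament of mature astrocytes, was at 18.2, 92 and 7.0 CPM and led in KO neurospheres 2. Of 9 tested oligodendrocyte lineage markers 7 were higher and 1 lower (median 9.39, or 7.71 at the floor). Sox8, a factor of the lineage, was at 127, 91.4 and 47.3 CPM and Bcas1 at 85.1, 58.3 and 102 CPM in neurospheres, whereas Mbp, the myelin protein of mature oligodendrocytes, was at 2.07, 1.80 and 0 CPM in neurospheres and 4.14, 8.22, 4.37, 5.90 and 6.79 CPM in MEFs, and was lower in neurospheres (log2 difference -2.22, SE 0.74, edgeR adjusted p 0.0289). The call of Mbp was lost without KO MEFs 2 or 5 or KO neurospheres 2 in turn (edgeR adjusted p 0.0502 to 0.0551). The myelin gene Cnp was higher in neurospheres, by 4.94 on the log2 scale. Of 7 tested neuron markers 5 were higher and 1, Stmn2, was lower. Without KO MEFs 1, 4 or 5 in turn the 5 became 3, and without KO MEFs 1 or 4 only 6 members were tested. Dcx, which marks young neurons, was at 30.6, 25.9 and 3.50 CPM with 0 in MEFs, and Elavl4 was also higher. Map2, a member too, is given with the cytoskeletal genes below. Mapt, from the cytoskeletal list and not a member here, was higher as well. The neuronal tubulin Tubb3 did not pass (113, 61, 18.9, 121 and 89 CPM in MEFs, 57, 70.9 and 12.9 CPM in neurospheres, edgeR adjusted p 0.331), although it was lower without KO MEFs 3 and KO neurospheres 2 (edgeR adjusted p 0.0484).

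Fibroblast markers were high in the MEFs. All 20 tested fibroblast and mesenchyme markers were lower in neurospheres (median -9.36, or -8.23 at the floor), also with KO MEFs 3 and KO neurospheres 2 left out. Their summed level was 27730, 19640, 30290, 22370 and 19610 CPM in MEFs and 87.2, 57.1 and 58.8 CPM in neurospheres. Pdgfrb, a receptor of mesenchymal cells, was at 201, 126, 177, 163 and 85.3 CPM against 0 (at least 348-fold lower). Dcn, the proteoglycan decorin, was at 132, 77.4, 102, 51.7 and 68.7 CPM with a single count in neurospheres. Markers of macrophages and blood summed to 22.4 to 120.3 CPM in the 5 MEF lines and to 0 to 2.07 CPM in neurospheres, with 3 of 3 tested members lower. The list holds 15 genes, and without the low-count filter 9 of 11 were lower and 0 higher. Without any 1 of the neurosphere lines 6 members passed as lower. Without KO MEFs 1 or 2 in turn only 1 member was tested, and it passed as lower. Endothelial markers summed to 11.2 to 37.7 CPM against 7.02 to 12.3 CPM, with overlap, and 1 of 2 tested was lower. Skeletal and heart muscle markers summed to 20.9 to 85.7 CPM against 0 to 2.89 CPM. Epithelial markers summed to 2.92 to 16.7 CPM against 0 to 2.41 CPM and none was tested. These other cell types were a small part of the MEF libraries, and what they add to a given gene's difference was not tested.

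**Figure D2:**
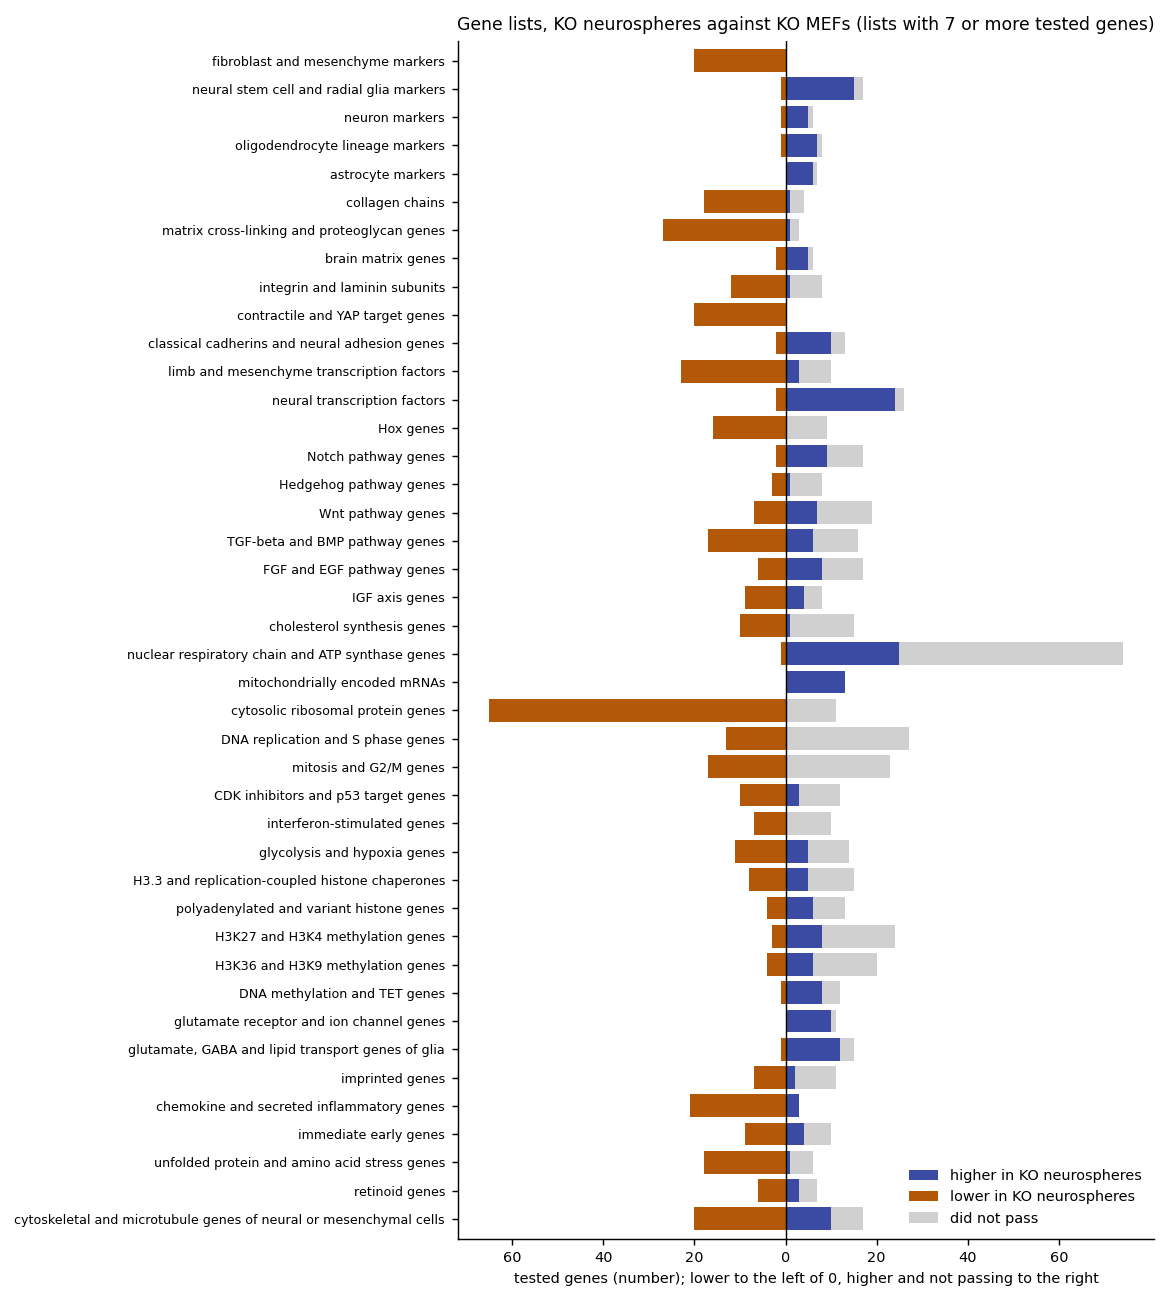
Tested members of each gene list that were higher in KO neurospheres (right of 0), lower (left of 0) or did not pass (grey, further out on the right), as numbers of genes on the horizontal axis. The fibroblast and contractile lists lie wholly on the lower side with 20 genes each, the ribosomal list has 65 genes lower and 0 higher, and the mitochondrially encoded list has 13 of 13 higher.

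The matrix programme differed gene by gene as well as in sum. Of 22 tested collagen chains 18 were lower in neurospheres and 1 was higher (median -6.66, or -5.03 at the floor). The higher chain was Col9a3, a chain of cartilage-type collagen IX, at 19, 16.8 and 10.8 CPM against 0, 0, 0, 0.347 and 0.377 CPM. Of 30 tested cross-linking and proteoglycan genes 27 were lower and 1, Plod1, was higher (log2 difference 1.04, SE 0.30, edgeR adjusted p 0.0159). The call of Plod1 was lost without KO neurospheres 1 (edgeR adjusted p 0.0942). Fn1, fibronectin, was at 2931, 2786, 3997, 2787 and 3002 CPM in MEFs and 12.4, 18 and 46.2 CPM in neurospheres (log2 difference -6.88, SE 0.49, edgeR adjusted p 5.99e-06). Sparc, a collagen-binding secreted protein, kept a sizeable level in neurospheres at 232, 894 and 156 CPM, led by KO neurospheres 2, against 3442, 2777, 3677, 3353 and 2758 CPM (log2 difference -2.88, SE 0.55, edgeR adjusted p 0.00205). Ogn, the small proteoglycan mimecan, shows how unlike the MEF lines were, with 77.7, 39.1, 1213, 33 and 62.3 CPM in MEFs 1 to 5 and 0 in neurospheres. Its call was lost without KO neurospheres 3 (edgeR adjusted p 0.0529). Timp3, an inhibitor of matrix proteases, was at 2076, 2716, 8705, 2387 and 2478 CPM against 1391, 967 and 520.3 CPM (log2 difference -1.92, SE 0.56, edgeR adjusted p 0.0178), again highest in KO MEFs 3. The call of Timp3 was lost without KO neurospheres 3 (edgeR adjusted p 0.0636).

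Brain matrix genes split by member. Of 8 tested, 5 were higher in neurospheres and 2 lower (median 6.58). Higher were Bcan, Ncan, Tnr, Sparcl1 and Ptprz1, and the lower pair was Tnc and Vcan. Ptprz1, a receptor phosphatase of progenitors that binds the other matrix proteins, was at 4488, 4095 and 3011 CPM against 78, 163, 25.3, 82.9 and 92.1 CPM (log2 difference 5.47, SE 0.48, edgeR adjusted p 2.34e-05). Tnr, tenascin R, was at 84.7, 72.2 and 8.75 CPM in neurospheres against 0, 1.03, 0, 0 and 0 CPM in MEFs, the opposite side from Tnc. Vcan, the widely expressed lectican versican, was at 153, 75.8 and 62.3 CPM against 699, 433, 136, 525 and 509 CPM (log2 difference -2.22, SE 0.51, edgeR adjusted p 0.00566), the opposite side from its relatives Bcan and Ncan. The WT lines gave Vcan a log2 difference of -0.60 that did not pass (edgeR adjusted p 0.471). The edgeR test of the difference between genotypes did not pass for Vcan.

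Contractile and YAP target genes were lower in neurospheres without exception: 20 of 20 tested, with a median log2 difference of -6.27, also 20 of 20 without KO MEFs 3 and KO neurospheres 2. Their sum was 14520, 23910, 14160, 20110 and 20210 CPM in MEFs and 749, 752 and 756 CPM in neurospheres. Ccn2, a secreted matrix protein and standard YAP readout, was at 836, 2680, 1320, 2519 and 1941 CPM in MEFs and had a single count over all neurosphere lines. Ankrd1, another standard readout, was at 145, 484, 41.3, 355 and 557 CPM against 0 (at least 732-fold lower), and KO MEFs 3 was the lowest MEF line. Ccn1 was at 278, 706, 593, 471 and 440.0 CPM against 3.72, 12.6 and 2.45 CPM (log2 difference -6.39, SE 0.59, edgeR adjusted p 3.12e-05). Tead1, which encodes a DNA-binding partner of YAP, was itself lower but remained at 188, 196 and 281 CPM in neurospheres (log2 difference -1.61, SE 0.21, edgeR adjusted p 0.000230). Caveolae, the membrane pits of spread cells, showed the same side, with 5 of 6 tested caveolin and cavin genes lower and 0 higher. Cavin1 was at 463, 525, 869.6, 582 and 581 CPM against 44.2, 70.9 and 35.4 CPM (log2 difference -3.58, SE 0.32, edgeR adjusted p 2.03e-05).

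The promoters of the contractile genes can be read beside these values. RefSeq promoter windows (250 bases before to 50 after the start, GRCm38.p6) matched 16 of the 20 genes, and 11 of the 16 hold the TEAD motif GGAATG on either strand, against 16.6% of all 27025 genes with a promoter window. The CArG box, bound by serum response factor, was found in 3 of 16 against 1.81%. A match is a description of letters, not a mapped binding site. The list was chosen in part as YAP targets, so a high share of TEAD letters follows in part from that choice. All 16 genes with a window were called, so the share cannot set called genes against others of the list. Windows of 3 genes that were lower in every neurosphere line are printed to show where the TEAD letters fall, 5′ to 3′ in gene direction with the motif or its reverse complement in capitals.
Acta2, chr19:34255324-34255623, minus strand: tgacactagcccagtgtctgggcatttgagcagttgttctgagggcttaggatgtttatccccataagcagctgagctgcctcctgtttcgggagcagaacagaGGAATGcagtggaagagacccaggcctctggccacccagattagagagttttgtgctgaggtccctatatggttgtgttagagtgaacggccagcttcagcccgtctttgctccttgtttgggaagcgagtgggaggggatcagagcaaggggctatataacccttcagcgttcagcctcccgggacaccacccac
Ankrd1, chr19:36119795-36120094, minus strand: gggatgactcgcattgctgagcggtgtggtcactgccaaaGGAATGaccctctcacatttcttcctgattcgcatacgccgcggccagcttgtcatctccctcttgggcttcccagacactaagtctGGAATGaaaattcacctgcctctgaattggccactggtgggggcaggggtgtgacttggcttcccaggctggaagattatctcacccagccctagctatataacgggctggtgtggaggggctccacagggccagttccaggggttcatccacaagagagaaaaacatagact
Ccn1, chr3:145649936-145650235, minus strand: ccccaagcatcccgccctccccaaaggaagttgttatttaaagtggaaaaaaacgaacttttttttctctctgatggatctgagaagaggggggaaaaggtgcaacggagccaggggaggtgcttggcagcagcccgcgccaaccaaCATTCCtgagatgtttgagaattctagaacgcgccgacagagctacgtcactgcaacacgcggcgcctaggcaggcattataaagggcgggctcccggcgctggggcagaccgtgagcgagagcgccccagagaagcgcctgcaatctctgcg
In Acta2 the letters begin 146 bases before the start, in Ankrd1 at 210 and 123 bases before it, and in Ccn1 on the opposite strand at 103 bases before it.

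Of 15 tested cadherins and neural adhesion genes 10 were higher in neurospheres and 2, Cdh3 and Cdh11, were lower (median 4.49). Cdh11, the cadherin of mesenchyme, was at 1336, 1166, 578, 1229 and 894 CPM against 7.85, 30.1 and 15.4 CPM (log2 difference -5.88, SE 0.51, edgeR adjusted p 2.11e-05). Cdh4, the retinal cadherin, was at 71.1, 43.9 and 174 CPM in neurospheres against 1.73, 2.06, 0, 0.694 and 1.51 CPM (log2 difference 6.24, SE 0.60, edgeR adjusted p 3.68e-05). N-cadherin, Cdh2, was at 131, 183 and 169 CPM and 121, 168, 95.2, 143 and 164 CPM with overlap (log2 difference 0.24, edgeR adjusted p 0.376). Of 20 tested integrin and laminin subunits 12 were lower and 1, Itgb8, was higher. Itgb8, a subunit of a receptor that activates latent TGF-beta, was at 649.9, 604 and 244 CPM against 9.67, 6.85, 33, 6.94 and 5.28 CPM (log2 difference 5.39, SE 0.61, edgeR adjusted p 0.000105). The higher count of 1 became 3 without KO MEFs 3 and 2 without KO neurospheres 1.

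Of 37 tested cytoskeletal genes 10 were higher and 20 lower. Among beta tubulins Tubb2b was higher at 3279, 4371 and 2492 CPM against 850.0, 632, 141, 713 and 754 CPM (log2 difference 2.47, SE 0.46, edgeR adjusted p 0.00184), and Tubb6 was lower at 8.26, 4.81 and 40.3 CPM against 230.3, 285, 161, 233 and 278 CPM (log2 difference -3.67, SE 0.62, edgeR adjusted p 0.00104). Tubulin genes are alike in sequence, and reads may be split between near copies. Map2, a microtubule protein of neurites, was at 1462, 1397 and 1240 CPM against 9.32, 13.4, 80.2, 8.33 and 8.68 CPM (log2 difference 5.88, SE 0.78, edgeR adjusted p 0.000269). Lmna, the lamin of stiff nuclei, was at 4.54, 9.62 and 10.2 CPM against 231, 238, 235, 256 and 231 CPM (log2 difference -4.86, SE 0.28, edgeR adjusted p 1.78e-06). Vim, the filament protein vimentin shared by both cell types, differed by -1.34 (1488, 2182 and 1293 CPM against 3870, 4183, 4118, 4212 and 4941 CPM).

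Transcription factors of brain and of limb or mesenchyme separated the groups. Of 28 tested neural factors 24 were higher in neurospheres and 2 lower (median 6.42, or 5.65 at the floor), and 25 of 29 were higher without KO MEFs 3 and KO neurospheres 2. Pax6, a factor of dorsal forebrain and eye progenitors, was at 43.4, 69.1 and 56.4 CPM against 0.345, 0.685, 1.94, 0 and 0 CPM (log2 difference 6.62, SE 0.59, edgeR adjusted p 2.16e-05). Pou3f2 was at 134, 132 and 93.8 CPM with 3 counts over all MEF lines. Dlx2 and En1 were the exceptions. Dlx2, which also patterns the jaw, was at 0.413, 0.601 and 0 CPM in neurospheres and 4.49, 17.8, 18.9, 6.25 and 8.30 CPM in MEFs, and En1, a midbrain and limb factor, at 1.24, 12 and 0.700 CPM and 60.1, 33.9, 11.7, 43.4 and 25.7 CPM. The call of En1 was lost without KO neurospheres 1 (edgeR adjusted p 0.0604).

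Of 33 tested limb and mesenchyme factors 23 were lower in neurospheres and 3 higher (median -4.01). Without KO MEFs 3 the 3 became 5. Prrx1, a factor of limb and trunk mesenchyme, was at 1067, 1166, 929, 842 and 1007 CPM against 68.2, 32.5 and 32.9 CPM (log2 difference -4.47, SE 0.32, edgeR adjusted p 5.14e-06). Twist2, Snai2, Osr1 and Foxc2 were lower too, and Osr1 and Foxc2 were at 0 in all neurosphere lines. Osr1 was at 36.2, 33.6, 153, 29.5 and 24.1 CPM in MEFs. Zeb1, Meis1 and Meis2, which act in both neural and mesenchymal progenitors, were higher in neurospheres. Zeb1 was at 733, 325 and 557 CPM against 98, 89.4, 174, 94.7 and 102 CPM (log2 difference 2.29, SE 0.29, edgeR adjusted p 0.000188). The call of Meis1 was lost without KO MEFs 4 or 5 or KO neurospheres 2 or 3 in turn (edgeR adjusted p 0.0646 to 0.146).

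Hox genes, which mark position along the body axis and in the limb, were mostly lower in the KO neurospheres. Of 25 tested 16 were lower in neurospheres and 0 higher (median -7.22, or -4.07 at the floor). Hoxc6 was at 135, 122, 33, 124 and 113 CPM against 0 (at least 244-fold lower). Hoxd13, of the distal limb, was at 16.6, 23, 209, 4.16 and 23 CPM in MEFs 1 to 5 and at 0 in neurospheres, so KO MEFs 3 was far above the others. Its call was lost without KO neurospheres 3 (edgeR adjusted p 0.0608). The neurosphere lines were not alike. The Hox sum was 13.2, 118 and 266 CPM in KO neurospheres 1 to 3 against 642, 665, 735, 634 and 634 CPM in KO MEFs. Among WT neurospheres 1 to 3 the Hox sum was 2.30, 918 and 1.07 CPM, so WT neurospheres 2 lay above every KO MEF line. Hoxa5 was at 10.7, 64.3 and 124 CPM in KO neurospheres and 20.7, 35.6, 27.2, 34.7 and 27.9 CPM in KO MEFs and did not pass (log2 difference 1.20, edgeR adjusted p 0.0995). Without KO neurospheres 1 it passed as higher in neurospheres (edgeR adjusted p 0.00236), the opposite side from the called Hox genes. Hoxb2, a hindbrain gene, was at 0, 0 and 9.45 CPM, and Hoxa2, too low to be tested, at 0, 0 and 17.2 CPM. Neither Hoxb2 nor Hoxa2 was called, and Hoxb2, at 0 in the other two lines, passed as lower without KO neurospheres 3 (edgeR adjusted p 0.000640).

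Notch signalling keeps neural progenitors undifferentiated, and genes at several levels of the pathway were higher in neurospheres. Of 19 tested genes 9 were higher and 2, Rbpj and Maml1, were lower (median 1.13). Among ligands Dll1 was at 55.8, 139 and 16.8 CPM against 0, 0.685, 2.43, 0 and 0 CPM (log2 difference 6.92, SE 0.95, edgeR adjusted p 0.000322). Among receptors Notch1 was at 243, 252 and 251 CPM against 52.5, 48.3, 44.7, 34.4 and 27.9 CPM (log2 difference 2.60, SE 0.21, edgeR adjusted p 1.23e-05), with the 3 neurosphere lines close together. Among targets Hes5 was at 177, 223 and 22.8 CPM against 0, Hey1 at 59.5, 133 and 39.9 CPM against 3.45, 8.22, 5.83, 4.51 and 2.26 CPM, and Nrarp, a feedback inhibitor, at 32.2, 61.9 and 21.7 CPM against 0.691, 0.685, 0, 4.16 and 0.755 CPM. Hes1, a target used in many cell types, was at 154, 102 and 208 CPM against 236, 274, 136, 239.7 and 247 CPM and did not pass (log2 difference -0.53, edgeR adjusted p 0.137). Hes1 passed without KO MEFs 3 or KO neurospheres 3 in turn (edgeR adjusted p 0.0373 and 0.0427). The call of Maml1 was lost without KO MEFs 2 or KO neurospheres 1 or 3 in turn (edgeR adjusted p 0.0556 to 0.103). The lower count of 2 became 4 without KO MEFs 3.

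Of 23 tested FGF and EGF genes 8 were higher in neurospheres, 6 were lower and 9 did not pass, beside background shares of 25.4% and 26.2%. The receptor genes Egfr and Fgfr3 were higher, Egfr at 573, 535 and 338 CPM against 105, 118, 95.2, 97.5 and 103 CPM (log2 difference 2.23, SE 0.19, edgeR adjusted p 1.58e-05) and Fgfr3 at 94.6, 78.8 and 74.9 CPM against 0.691, 1.37, 6.32, 0.694 and 0 CPM (log2 difference 5.64, SE 0.68, edgeR adjusted p 0.000146). The ETS factors Etv1 and Etv5, known targets of FGF signals, were higher by 5.06 and 3.79. The ligand genes Fgf2, Fgf7, Fgf10, Hbegf, Ereg and Nrg1 were lower. Hbegf, a heparin-binding EGF receptor ligand, was at 25.6, 24.6 and 54.3 CPM against 162, 396, 131, 453 and 494 CPM (log2 difference -3.20, SE 0.55, edgeR adjusted p 0.00123). Fgf1 was a ligand on the other side, at 44.2, 14.4 and 164 CPM with 3 counts over all MEF lines.

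Wnt genes were even in number, with 7 of 26 tested higher and 7 lower (median -0.13). Higher were the ligands Wnt7a and Wnt7b, known from forebrain, and the feedback gene Axin2 at 55.4, 43.9 and 56 CPM against 9.32, 4.80, 7.77, 1.39 and 1.89 CPM (log2 difference 3.39, SE 0.49, edgeR adjusted p 0.000389). Lower were secreted inhibitors. Dkk2 was at 73.2, 89.4, 159, 64.5 and 81.5 CPM and Dkk3 at 65.6, 46.6, 163, 78.4 and 72.8 CPM in MEFs, both at 0 in neurospheres, and Sfrp1 was at 4.96, 5.41 and 14 CPM against 221, 128, 83.1, 113 and 127 CPM (log2 difference -3.98, SE 0.46, edgeR adjusted p 0.000109). Sfrp2 rested on KO MEFs 3, with 35.2, 7.88, 589.8, 5.90 and 14.7 CPM in MEFs 1 to 5. Its log2 difference was -6.56 with all lines and -3.52 without KO MEFs 3, and its call was lost without any 1 of the 3 neurosphere lines.

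Of 33 tested TGF-beta and BMP genes 6 were higher in neurospheres and 17 lower (median -1.25). Ligand and inhibitor genes of the MEFs included Bmp4, Inhba and Grem1. Bmp4 was at 31.8, 75, 510.1, 37.5 and 43.4 CPM in MEFs 1 to 5 and 0 in neurospheres, highest in KO MEFs 3. Bmp7 was the reverse, at 15.7, 7.82 and 32.6 CPM in neurospheres and 0 in MEFs (at least 83.5-fold), and the receptor gene Bmpr1b was higher with it (log2 difference 2.68, SE 0.51, edgeR adjusted p 0.00197). In the Hedgehog pathway 1 of 11 tested genes was higher and 3 were lower. The higher gene was Ptch1, receptor and target at once, at 189, 204 and 71.8 CPM against 5.87, 10.3, 27.2, 12.5 and 10.6 CPM (log2 difference 3.58, SE 0.48, edgeR adjusted p 0.000260). Lower were Gli3, a mainly repressive factor of the pathway (log2 difference -2.12, SE 0.60, edgeR adjusted p 0.0154), Boc and Disp1. The higher count of 1 became 2 without KO MEFs 3 or KO neurospheres 3. The calls of Boc and Disp1 were lost without KO neurospheres 1 and KO neurospheres 3 respectively (edgeR adjusted p 0.0748 and 0.0545).

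Of 17 tested IGF axis genes 4 were higher and 9 lower. Igf2, the fetal growth factor, was at 1164, 1460, 165, 711 and 591 CPM in MEFs against 1.24, 1.20 and 0.700 CPM in neurospheres (log2 difference -9.57, SE 0.96, edgeR adjusted p 4.98e-05). Binding protein genes fell on both sides. Igfbp3 was at 262, 34.9 and 215 CPM in neurospheres against 50.8, 22.6, 39.4, 11.1 and 23.4 CPM (log2 difference 2.56, SE 0.60, edgeR adjusted p 0.00626), whereas Igfbp7 was lower. The receptor gene Igf1r did not pass (238, 317 and 278 CPM against 246, 411, 490.2, 340.4 and 333 CPM). The higher count of 4 became 2 without KO MEFs 4 or KO MEFs 5, and 2 with TPM.

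The neurosphere lines differed widely in genes of cell division. Of 40 tested mitosis genes 17 were lower and 0 higher (median -1.94), and of 40 tested DNA replication genes 13 were lower and 0 higher (median -0.89). The other 23 and 27 genes did not pass, and the shares called are below the 51.6% of all genes called in either direction. The shares called lower are above the 26.2% of all genes, and 0 were higher against 25.4% of all genes. The mitosis sum was 5399, 8502, 9477, 5161 and 5462 CPM in KO MEFs 1 to 5 and 1072, 444 and 4384 CPM in KO neurospheres 1 to 3. The replication sum was 2117, 3018, 2371, 2132 and 2080 CPM and 629, 506 and 2081 CPM. KO neurospheres 2 was lowest and KO neurospheres 3 highest in both sums, and for replication KO neurospheres 3 lay at the level of KO MEFs 5. Mki67, the proliferation marker, was at 76, 6.01 and 285 CPM in neurospheres and 252, 411, 546, 257 and 265 CPM in MEFs, with overlap, and did not pass (edgeR adjusted p 0.165). Top2a was at 141, 3.01 and 661 CPM against 560.0, 833, 1166, 542 and 563 CPM and did not pass either (edgeR adjusted p 0.262). Mki67 passed without KO neurospheres 3 (edgeR adjusted p 0.0186). Top2a passed without KO neurospheres 3 (edgeR adjusted p 0.0415).

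Anln, Ccnb2 and Rrm2, chosen from the lists on these same values, had no overlap between the cell types. The share of all genes without overlap is not given. Anln, the cytokinesis protein anillin, was at 16.9, 6.01 and 46.9 CPM against 175, 340.2, 346, 214 and 204 CPM (log2 difference -3.40, SE 0.58, edgeR adjusted p 0.00114). Ccnb2, a mitotic cyclin, was at 1.65, 1.20 and 13.7 CPM against 51.1, 56.5, 65.6, 42.3 and 29.4 CPM (log2 difference -3.03, SE 0.66, edgeR adjusted p 0.00420), and Rrm2, of deoxynucleotide synthesis, at 14.1, 3.01 and 76.7 CPM against 149, 311, 219, 152 and 172 CPM (log2 difference -2.63, SE 0.77, edgeR adjusted p 0.0179). The counts moved with single lines. Without KO neurospheres 3 they were 39 of 40 for mitosis and 34 of 40 for replication. Without KO neurospheres 1 they were 5 and 4, without KO MEFs 2 they were 10 and 6, and without KO MEFs 3 and KO neurospheres 2 together 13 and 7. Without KO MEFs 1 the replication count was 8, and without KO neurospheres 2 it was 6. With TPM in place of counts they were 35 and 25. Aurka, Ect2, Rrm2, Ccne1 and Asf1b lost their calls without KO neurospheres 1 (edgeR adjusted p 0.0743, 0.0869, 0.0703, 0.0874 and 0.0670). Without KO neurospheres 3 the log2 differences of Ccnb2 and Rrm2 were -5.0 and -4.45. Ccne1 also lost its call without KO MEFs 2 (edgeR adjusted p 0.0520).

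**Figure D3:**
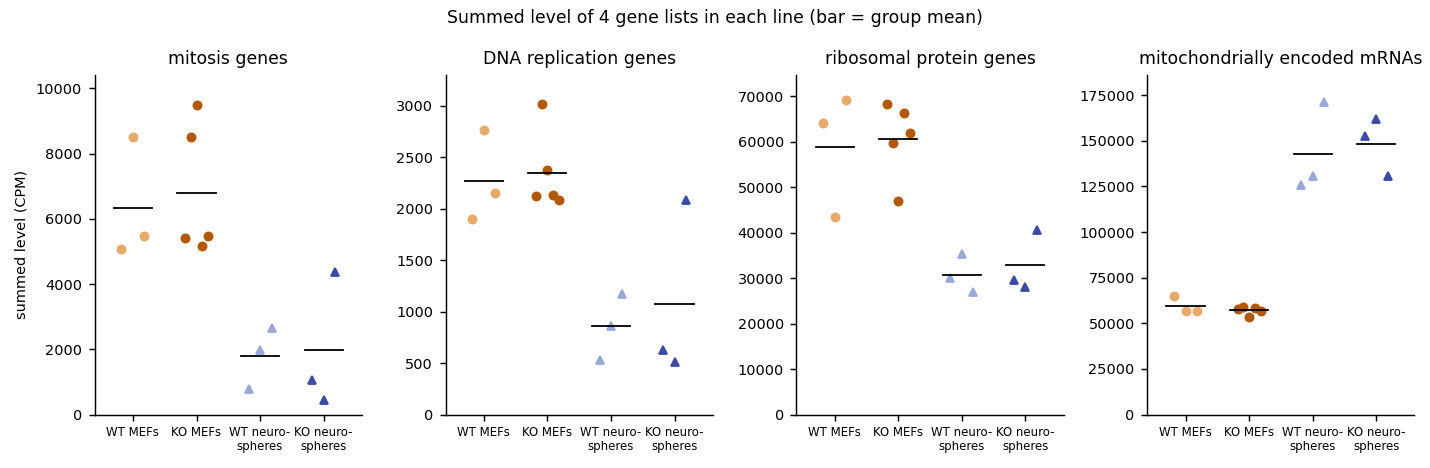
Summed CPM of 4 gene lists in each line, 1 point a line, with WT and KO MEFs (circles) and WT and KO neurospheres (triangles) on a linear axis from 0. Mitosis genes spread from 443.7 to 4384 CPM over the KO neurosphere lines, whereas ribosomal protein genes and mitochondrial mRNAs keep the cell types apart.

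Among 33 mitosis genes with a promoter window 26 hold the CHR motif TTTGAA on either strand, against 20.2% of all genes, and 25 hold CCAAT against 41.1%. Of the 15 called mitosis genes with a window, 11 hold CHR, against 26 of 33 in the whole list. CHR, the cell cycle genes homology region, is known from genes repressed outside late cell cycle stages. Windows of Anln, Ccnb2 and Aurka, all lower in the KO neurospheres, are printed with the CHR letters or their reverse complement in capitals.
Anln, chr9:22389157-22389456, minus strand: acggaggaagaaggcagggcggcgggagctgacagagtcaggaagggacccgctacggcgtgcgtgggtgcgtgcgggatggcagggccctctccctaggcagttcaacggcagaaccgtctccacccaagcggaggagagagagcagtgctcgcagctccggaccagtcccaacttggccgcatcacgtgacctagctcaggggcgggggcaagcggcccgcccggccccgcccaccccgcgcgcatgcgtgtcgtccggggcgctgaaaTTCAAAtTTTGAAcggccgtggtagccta
Ccnb2, chr9:70421505-70421804, minus strand: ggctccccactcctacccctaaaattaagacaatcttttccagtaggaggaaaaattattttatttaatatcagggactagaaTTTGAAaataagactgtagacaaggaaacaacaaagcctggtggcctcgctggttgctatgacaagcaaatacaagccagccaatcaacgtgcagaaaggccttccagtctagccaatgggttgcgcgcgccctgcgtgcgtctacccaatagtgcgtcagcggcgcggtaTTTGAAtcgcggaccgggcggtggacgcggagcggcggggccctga
Aurka, chr2:172370521-172370820, minus strand: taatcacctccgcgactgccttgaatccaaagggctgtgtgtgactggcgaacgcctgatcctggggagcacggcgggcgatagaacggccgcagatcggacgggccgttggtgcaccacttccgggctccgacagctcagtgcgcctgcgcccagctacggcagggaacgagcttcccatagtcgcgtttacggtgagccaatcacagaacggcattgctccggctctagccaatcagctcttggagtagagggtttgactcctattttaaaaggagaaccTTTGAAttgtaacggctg
In all 3 windows a match lies within 50 bases after the start, and Ccnb2 has another 167 bases before it.

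Cell cycle inhibitors did not share a side. Cdkn1b, the inhibitor p27, was higher in neurospheres at 229, 172 and 124 CPM against 56.3, 52.1, 102, 58.6 and 56.2 CPM (log2 difference 1.45, SE 0.27, edgeR adjusted p 0.00174). Cdkn1c and Cdkn2b were lower, Cdkn1c at 0.413, 1.20 and 0.350 CPM against 53.9, 50.7, 21.4, 30.5 and 37 CPM (log2 difference -5.91, SE 0.55, edgeR adjusted p 2.50e-05). Cdkn1a, the inhibitor p21 and a p53 target, was at 132, 359 and 431 CPM against 593, 636, 334, 722 and 733 CPM and did not pass (edgeR adjusted p 0.0624). Cdkn1a passed without KO MEFs 3 or KO neurospheres 3 in turn (edgeR adjusted p 0.0251 and 0.0391). Trp53, which encodes p53, was at 13.2, 20.4 and 21 CPM against 48, 46.9, 26.2, 48.9 and 49.4 CPM (log2 difference -1.25, SE 0.28, edgeR adjusted p 0.00443). Of the 22 tested CDK inhibitor and p53 target genes 3 were higher and 10 lower, and without KO neurospheres 1 the 10 became 6.

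Translation genes were lower in neurospheres and mitochondrial mRNAs higher. Of 76 tested cytosolic ribosomal protein genes 65 were lower and 0 higher (median -0.91). Their sum was 68450, 59710, 46980, 66460 and 62030 CPM in MEFs and 29710, 28000 and 40700 CPM in neurospheres, with no overlap. Rplp0, of the ribosomal stalk, was at 455, 332 and 613 CPM against 1097, 939, 854, 1055 and 953 CPM (log2 difference -1.05, SE 0.21, edgeR adjusted p 0.00252). Ribosomal protein genes have many near-identical processed copies, so single members are uncertain. All 13 mitochondrially encoded mRNAs were higher (median 1.39). mt-Co1, a subunit of cytochrome oxidase, was at 6082, 8297 and 5302 CPM against 1827, 1852, 1640, 1829 and 1879 CPM (log2 difference 1.88, SE 0.17, edgeR adjusted p 2.34e-05). Both directions held with DESeq2 size factors, with the mitochondrial genes left out of the scaling for the ribosomal list, and with TPM, which moved the median of all genes by -0.12. With replicate number as a block in the fit, 11 of 76 ribosomal genes were lower (median -0.86), beside 28.9% of all genes called. Tested against a fold of 2, 3 of 76 were lower, beside 24% of all genes called. For the mitochondrially encoded mRNAs these settings gave 11 and 8 of 13 higher. Of 75 tested nuclear respiratory chain genes 25 were higher and 1, Atp5g1, was lower (median 0.44). Their sum was 13320, 9248 and 16840 CPM in neurospheres against 10250, 9170, 8643, 9557 and 9548 CPM in MEFs, and KO neurospheres 2 lay inside the MEF range. Without KO neurospheres 2 the 25 became 45, and with TPM 16. The call of Atp5g1 was lost without KO MEFs 2 or 4 or KO neurospheres 1 or 2 in turn (edgeR adjusted p 0.0507 to 0.0911). Without KO neurospheres 3 the lower count of 1 became 3.

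Of 25 tested glycolysis and hypoxia genes 11 were lower and 5 higher (median -0.93). Ldha, the lactate dehydrogenase of glycolytic cells, was lower at 151, 93.8 and 369 CPM against 877, 764, 668, 859 and 869 CPM (log2 difference -1.96, SE 0.40, edgeR adjusted p 0.00271), while Ldhb was higher at 164, 124 and 84.4 CPM against 6.56, 2.40, 13.6, 6.25 and 6.04 CPM (log2 difference 4.20, SE 0.42, edgeR adjusted p 4.36e-05). Aldoc, the brain aldolase, was at 203, 1079 and 684 CPM against 2.42, 0.685, 0.486, 1.39 and 1.51 CPM (log2 difference 8.91, SE 0.61, edgeR adjusted p 5.77e-06), while Aldoa did not pass (154, 86.6 and 192 CPM against 279, 198, 116, 289 and 236 CPM, edgeR adjusted p 0.149). Aldoa passed without KO MEFs 3 (edgeR adjusted p 0.0330). Slc2a1, the main glucose transporter, was lower (log2 difference -2.51, SE 0.39, edgeR adjusted p 0.000533).

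Genes of glial transport carried large differences. Of 16 tested glutamate, GABA and lipid transport genes 12 were higher and 1 was lower (median 6.40, or 6.04 at the floor). Apoe, the brain's lipid carrier, was at 2150, 2329 and 1178 CPM against 12.1, 21.6, 10.7, 3.82 and 2.64 CPM (log2 difference 7.54, SE 0.61, edgeR adjusted p 1.50e-05). Glul, glutamine synthetase, was at 670.1, 1091 and 419 CPM against 21.1, 21.6, 22.8, 12.5 and 18.1 CPM (log2 difference 5.26, SE 0.33, edgeR adjusted p 2.81e-06). Slc1a2, a glial glutamate transporter, was at 506, 886 and 1245 CPM against 1.73, 1.03, 0.486, 2.08 and 0 CPM (log2 difference 9.59, SE 0.53, edgeR adjusted p 1.86e-06). The lower count of 1 became 3 without KO neurospheres 1 or 3 and 2 without KO neurospheres 2. Of 11 tested glutamate receptor and ion channel genes, from a list of 26, 10 were higher and 0 lower (median 7.07). Without the low-count filter 17 of 25 were higher and 0 lower (median 4.23), beside 34.3% of all genes called either way. Gria2, an AMPA receptor subunit, was at 159.9, 163 and 114 CPM against 0 in MEFs (at least 650.3-fold).

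Secretory pathway chaperones were lower in neurospheres. Of 24 tested unfolded protein and amino acid stress genes 18 were lower and 1, Dnajb9, was higher (median -1.68). Hspa5, the main chaperone of the endoplasmic reticulum, was at 161, 171 and 424 CPM against 1749, 1358, 1321, 1655 and 1516 CPM (log2 difference -2.57, SE 0.34, edgeR adjusted p 0.000234). Pdia6, a disulphide isomerase, was at 88.4, 93.8 and 204 CPM against 886, 851, 774, 812 and 799.6 CPM (log2 difference -2.66, SE 0.29, edgeR adjusted p 7.53e-05), and Calr, calreticulin, at 109, 129 and 242 CPM against 739, 616, 684, 764 and 692 CPM (log2 difference -2.11, SE 0.27, edgeR adjusted p 0.000176). The regulators Xbp1 and Atf4 were lower too (log2 differences -2.44 and -1.79). KO neurospheres 3 was the highest neurosphere line for all 3 chaperones and still below every MEF line.

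The endoplasmic reticulum stress element (CCAAT and CCACG, 9 bases apart) was found in 6 of 22 promoter windows of this list, on either strand, against 0.137% of all genes. Every match to it also counts as a match to CCAAT, which 18 of the 22 hold. Windows of Pdia6, Hspa5 and Calr are printed with the element or its reverse complement in capitals.
Pdia6, chr12:17266339-17266638, plus strand: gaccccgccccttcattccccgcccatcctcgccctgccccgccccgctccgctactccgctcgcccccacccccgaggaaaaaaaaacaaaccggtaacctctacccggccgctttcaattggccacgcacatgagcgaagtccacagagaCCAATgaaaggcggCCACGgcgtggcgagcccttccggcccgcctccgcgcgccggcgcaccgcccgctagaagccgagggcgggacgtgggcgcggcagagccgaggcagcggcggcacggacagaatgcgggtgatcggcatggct
Hspa5, chr2:34771840-34772139, plus strand: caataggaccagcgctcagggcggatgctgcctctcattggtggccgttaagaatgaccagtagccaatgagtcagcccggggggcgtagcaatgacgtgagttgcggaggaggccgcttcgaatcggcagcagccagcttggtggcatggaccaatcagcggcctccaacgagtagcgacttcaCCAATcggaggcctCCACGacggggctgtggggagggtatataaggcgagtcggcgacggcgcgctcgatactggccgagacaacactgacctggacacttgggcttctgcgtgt
Calr, chr8:84846882-84847181, minus strand: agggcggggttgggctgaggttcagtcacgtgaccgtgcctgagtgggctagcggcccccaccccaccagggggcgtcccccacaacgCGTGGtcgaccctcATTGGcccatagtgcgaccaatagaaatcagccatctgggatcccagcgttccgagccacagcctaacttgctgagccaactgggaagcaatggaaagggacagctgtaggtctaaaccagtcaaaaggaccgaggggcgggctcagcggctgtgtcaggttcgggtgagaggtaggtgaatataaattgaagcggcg
The element begins 98 bases before the start in Pdia6, 65 in Hspa5 and, on the opposite strand, 162 in Calr.

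The motif search covered 12 pairs of a list and a motif, and the others, on either strand, were as follows. Motifs were paired with lists of genes known for them, so a high share follows in part from that choice. ATF4's TGATGNAA was in 4 of the 22 stress gene windows against 4.51% of all genes. Among 17 cholesterol synthesis genes with a window the sterol element TCACNCCAC was in 1 (1.44% of all genes), which is not among the 7 called, and CCAAT in 16. Among 17 neural stem cell markers the SOX motif ACAAAG was in 4 (23.5%, against 21.0% of all genes), the RBPJ motif TGGGAA in 6 (35.3% against 28.3%) and the octamer ATGCAAAT in 2 (11.8% against 1.97%). The first 2 of these 3 were near the share of all genes.

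Of 25 tested cholesterol synthesis genes 10 were lower and 1, Tm7sf2, was higher (median -1.0). The call of Tm7sf2 was lost without KO neurospheres 1 (edgeR adjusted p 0.0570). Idi1, an isomerase of the pathway, was at 103, 28.9 and 122 CPM against 338, 339, 212, 409 and 291 CPM (log2 difference -1.88, SE 0.42, edgeR adjusted p 0.00469). Hmgcs1, its entry enzyme, did not pass, with 475, 197 and 824 CPM in neurospheres, lowest in KO neurospheres 2, against 546, 307, 232, 472 and 438 CPM (edgeR adjusted p 0.519).

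Of 24 tested secreted inflammatory genes 21 were lower in neurospheres and 3 higher (median -7.72, or -5.46 at the floor). Ccl2, a monocyte chemokine, was at 172, 199, 29.1, 120.0 and 111 CPM with a single count in neurospheres, and Cxcl12 was at 188, 218, 813, 172 and 197 CPM against 0.826, 0 and 0.350 CPM. Higher were Cx3cl1, Il33 and C4b. The call of Cx3cl1 was lost without KO neurospheres 1 or 2 in turn (edgeR adjusted p 0.0542 and 0.105). The call of C4b was lost without KO neurospheres 2 (edgeR adjusted p 0.0587). Il33, a cytokine held in nuclei of glia, was at 56.2, 10.8 and 113 CPM against 4.49, 1.71, 0, 1.74 and 1.51 CPM (log2 difference 4.92, SE 0.78, edgeR adjusted p 0.000710). Of 17 tested interferon-stimulated genes 7 were lower and 0 higher. Among 19 tested immediate early genes 9 were lower and 4 higher, split within the AP-1 family. Fos was at 241, 356 and 147 CPM against 13.1, 13.4, 14.6, 8.67 and 9.06 CPM (log2 difference 4.42, SE 0.31, edgeR adjusted p 4.42e-06) and Fosb was higher with it, whereas Fosl1 was at 19, 30.8, 8.74, 29.5 and 32.8 CPM in MEFs and 0 in neurospheres, and Junb was lower (log2 difference -1.36, SE 0.27, edgeR adjusted p 0.00233).

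Of 13 tested retinoid genes 6 were lower and 3 higher. Rarg, a retinoic acid receptor gene, was at 1.24, 2.40 and 0.350 CPM against 58.4, 45.2, 147, 48.2 and 44.1 CPM (log2 difference -5.77, SE 0.71, edgeR adjusted p 0.000161), while Rarb was higher at 10.7, 15.6 and 19.3 CPM against 0.345, 6.85, 0, 2.43 and 1.51 CPM (log2 difference 2.72, SE 0.79, edgeR adjusted p 0.0161). The higher count of 3 became 1 without KO neurospheres 1. Of 18 tested imprinted genes 7 were lower and 2 higher. Nnat, neuronatin, was at 474, 714 and 36.8 CPM, lowest in KO neurospheres 3, against 10.4, 16.1, 0.972, 23.2 and 12.1 CPM (log2 difference 5.02, SE 0.88, edgeR adjusted p 0.00132), and Peg10 was at 79.3, 87.8 and 244 CPM against 21.8, 19.5, 27.2, 26 and 23.4 CPM (log2 difference 2.56, SE 0.35, edgeR adjusted p 0.000270).

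The chaperones that place H3.3 and other H3 differed by member. Of 23 tested H3.3 and replication-coupled chaperone genes 5 were higher in neurospheres and 8 lower (median -0.36), beside background shares of 25.4% and 26.2%. Hira did not pass (33.9, 25.9 and 34 CPM against 27.6, 34.6, 40.8, 33 and 24.9 CPM, log2 difference -0.02, 95% interval -0.52 to 0.49), nor did Daxx (21.9, 24.6 and 24.5 CPM against 22.1, 32.9, 25.8, 25 and 26.8 CPM, 95% interval -0.61 to 0.32). The intervals of both exclude a 2-fold difference. Atrx, the partner of Daxx, passed with a small difference at 693, 802 and 642 CPM against 485, 537, 607, 459.7 and 541 CPM (log2 difference 0.46, SE 0.16, edgeR adjusted p 0.0327). The call of Atrx was lost without KO MEFs 1, 2, 4 or 5 or KO neurospheres 1 or 2 in turn (edgeR adjusted p 0.0594 to 0.0898). Cabin1 and Ubn2, subunits of the HIRA complex, were higher by 1.21 and 0.91, and Ubn1 did not pass.

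The sister chaperones Asf1a and Asf1b lay on opposite sides. Asf1a, which hands histones to HIRA, was at 119.8, 136 and 58.1 CPM against 43.5, 42.8, 60.2, 35 and 35.1 CPM (log2 difference 1.29, SE 0.29, edgeR adjusted p 0.00446). Asf1b, tied to dividing cells, was at 1.24, 0 and 15.1 CPM against 35.6, 51.7, 41.8, 35.4 and 27.2 CPM (log2 difference -2.67, SE 0.81, edgeR adjusted p 0.0202), and without KO neurospheres 3 its log2 difference was -5.62. The call of Asf1b was lost without KO neurospheres 1 (edgeR adjusted p 0.0670). Chaf1a, of the replication-coupled assembly factor, and Npm1, nucleophosmin, were lower as well. The call of Chaf1a was lost without KO MEFs 1, 2, 4 or 5 or KO neurospheres 1 or 2 in turn (edgeR adjusted p 0.0556 to 0.150). Npm1 was at 823, 591 and 801 CPM against 2709, 3043, 1829, 2752 and 2810 CPM (log2 difference -1.81, SE 0.22, edgeR adjusted p 0.000120). The counts of 5 and 8 moved with single lines. The higher count was 3 without KO MEFs 1, 2 or 4 or KO neurospheres 2 and 2 with TPM, and the lower count was 4 without KO neurospheres 1 and 5 without KO MEFs 2 or KO neurospheres 2.

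Of 17 tested polyadenylated and variant histone genes 6 were higher and 4 lower. The 6 include the remnant of H3f3a, the targeted gene. The list also holds members of the histone gene clusters, such as Hist1h1c and Hist2h2be. The variants of H2A.Z were opposite, H2afv higher at 258, 219 and 235 CPM against 57.7, 49.7, 118, 46.5 and 33.2 CPM (log2 difference 1.99, SE 0.35, edgeR adjusted p 0.00121) and H2afz lower at 353, 319 and 932 CPM against 1116, 1186, 999, 889.9 and 918 CPM (log2 difference -0.91, SE 0.34, edgeR adjusted p 0.0454). The call of H2afz was lost without KO MEFs 1, 2, 3, 4 or 5 or KO neurospheres 1 or 2 in turn (edgeR adjusted p 0.0594 to 0.163). Cenpa, the centromeric H3, was at 19.8, 14.4 and 81.6 CPM against 79.1, 119.6, 133, 93.7 and 92.5 CPM (log2 difference -1.38, SE 0.51, edgeR adjusted p 0.0454), with overlap of KO neurospheres 3 and KO MEFs 1. The call of Cenpa was lost without KO MEFs 1, 2, 3, 4 or 5 or KO neurospheres 1 or 2 in turn (edgeR adjusted p 0.0604 to 0.150). Without KO neurospheres 3 the log2 differences of H2afz and Cenpa were -1.58 and -2.55. The lower count of 4 became 0 without KO MEFs 1, 2 or 5 or KO neurospheres 1, and 1 without KO MEFs 3 or 4 or KO neurospheres 2. Histone genes have near copies, so single members are uncertain.

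Among 27 tested H3K27 and H3K4 methylation genes 8 were higher and 3 lower. Eed, a core subunit of PRC2, was at 28.5, 33.1 and 31.5 CPM against 68, 79.8, 58.8, 70.8 and 82.6 CPM (log2 difference -1.20, SE 0.19, edgeR adjusted p 0.000578). Ezh2, its enzyme, did not pass (134, 108 and 194 CPM against 156, 218, 146, 127 and 148 CPM, edgeR adjusted p 0.728). Kdm6a, an H3K27 demethylase gene, was higher (log2 difference 1.08, SE 0.34, edgeR adjusted p 0.0232). The call of Kdm6a was lost without KO neurospheres 1 or 2 in turn (edgeR adjusted p 0.0705 and 0.0929). The 8 became 5 without KO neurospheres 1, 4 without KO neurospheres 2 and 3 with TPM, and the 3 lower became 5 without KO neurospheres 3. Of 24 tested H3K36 and H3K9 methylation genes 6 were higher and 4 lower, and without KO neurospheres 1 the 4 became 0, without KO MEFs 1 or KO neurospheres 2 they became 2, and with TPM the 6 became 3. Setd2, the main H3K36 trimethylase gene, did not pass (log2 difference -0.08, 95% interval -0.40 to 0.24).

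DNA methylation genes leaned to the neurospheres, with 8 of 13 tested higher and 1, Mbd2, lower (median 0.73). Dnmt3a, a de novo methyltransferase gene, was at 133, 190.0 and 161 CPM against 33.1, 39.8, 35, 31.2 and 23.4 CPM (log2 difference 2.33, SE 0.20, edgeR adjusted p 1.84e-05). Tet1, of the 5-methylcytosine oxidases, was at 68.2, 82.4 and 51.5 CPM against 15.9, 5.14, 4.37, 9.37 and 4.53 CPM (log2 difference 3.09, SE 0.41, edgeR adjusted p 0.000229), and Tet3 at 134, 139 and 122 CPM against 51.4, 56.2, 48.6, 49.3 and 58.5 CPM (log2 difference 1.34, SE 0.15, edgeR adjusted p 7.78e-05). Dnmt1, the maintenance enzyme, did not pass (log2 difference -0.57, edgeR adjusted p 0.210). Dnmt1 passed without KO neurospheres 3 (edgeR adjusted p 0.00294). Without KO MEFs 5 or KO neurospheres 2 the 8 became 5, and with TPM 4, and without KO neurospheres 3 the 1 lower became 3.

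The same cell type contrast in WT lines gives the KO values a scale. Of 11080 genes tested in WT lines 4614 (41.6%) passed, 2304 higher and 2310 lower, from 3 lines a group. Of 10859 genes tested in both genotypes 5599 passed in KO and 4511 in WT. The 4038 that passed in both were 72.1% of the KO calls and 89.5% of the WT calls, all of them in the same direction in both genotypes. Across genes the log2 differences of the genotypes had a Pearson r of 0.956 and a Spearman rho of 0.933. Genes are not independent replicates, and genes with no count in a group take values set by the fit's prior count. Of 1561 genes that passed in KO only, 1519 had the same sign in WT, and of 473 that passed in WT only, 457 had the same sign in KO.

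**Figure D4:**
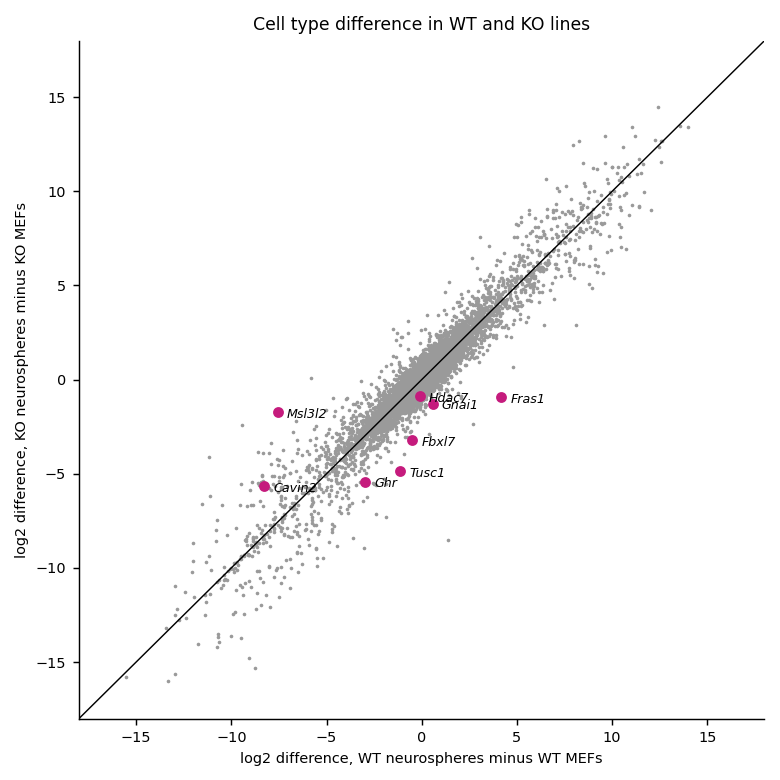
Log2 difference between neurospheres and MEFs in WT lines (horizontal axis) and KO lines (vertical axis) for 10859 genes, 1 point a gene. The line marks equal values, coloured points are the 8 genes with the smallest interaction p, and the fitted values of genes with no count in a group are set by the prior count. Points follow the line with r = 0.956.

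List counts in the WT lines are set beside those of the KO lines as a description. Fibroblast markers were lower in 20 of 20 tested genes in WT as in KO, contractile genes in 20 of 20, and neural stem cell markers were higher in 15 of 18 in both. Mitochondrially encoded mRNAs were higher in 12 of 13 in WT, and ribosomal protein genes lower in 51 of 76. Mitosis genes were lower in 27 of 40 in WT against 17 of 40 in KO, with WT sums of 5062, 8502 and 5470 CPM in MEFs and 790.4, 1967 and 2652 CPM in neurospheres. Cholesterol synthesis genes were lower in 2 of 24 in WT against 10 of 25 in KO. Hox genes were lower in 8 of 19 in WT (median -1.63, also at the floor) against 16 of 25 in KO (median -7.22, or -4.07 at the floor). The WT Hox values rest on an uneven group, with sums of 2.30, 918 and 1.07 CPM in WT neurospheres 1 to 3, and the genes tested were not the same. The list counts of the genotypes were not tested against each other.

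The difference between the genotypes was tested gene by gene as an interaction. Of 12113 genes tested 0 (0%) passed with edgeR, 366 had an unadjusted p under 0.05, and DESeq2 called 3. Among the 2527 genes at 50 CPM or more in all 4 groups the interval of the interaction had a median width of 0.651 to each side on the log2 scale, and for 1710 of them it lay inside a 2-fold difference either way. These intervals are not adjusted for the number of genes. In simulated data of this design the adjusted test found 1% of genes changed 2-fold and 33% of those changed 4-fold, so a count of 0 does not show that the genotypes are alike. H3f3a and H3f3b had interaction values of 0.71 (p 0.166) and 0.17 (p 0.609).

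The 8 genes with the smallest interaction p are given as values. Fras1, a basement membrane protein, was at 12.6, 30.8 and 94.9 CPM in WT neurospheres and 3.31, 0.601 and 3.50 CPM in KO neurospheres, against 1.98, 2.16 and 3.35 CPM in WT MEFs and 5.87, 4.11, 3.89, 8.67 and 2.64 CPM in KO MEFs (interaction -5.11, p 0.000156, DESeq2 adjusted p 0.00218). Gnai1, an inhibitory G protein alpha subunit, was at 17.6, 22.4 and 27.4 CPM in WT and 9.91, 8.42 and 14.4 CPM in KO neurospheres, against 18.6, 16.9 and 10.7 CPM and 26.2, 27.1, 30.6, 28.1 and 25.3 CPM in MEFs (interaction -1.86, p 0.000217, DESeq2 adjusted p 0.0278). In both genes the WT and KO neurosphere lines did not overlap, which also held for Cavin2, Ghr, Hdac7 and Msl3l2 below. For Gnai1 the KO MEF lines also lay above all WT MEF lines. The 8 genes were picked on these same values, so such gaps follow in part from the choice. The share of all genes with such gaps is not given. Cavin2, of the caveolar coat, was at 525, 612 and 375 CPM in WT and 313, 448, 469, 481 and 585 CPM in KO MEFs, against 3.06, 0.467 and 1.07 CPM and 4.96, 9.62 and 11.9 CPM in neurospheres (interaction 2.59, p 0.000581). Ghr, the growth hormone receptor, had an interaction of -2.44 (p 0.00105), from 10.7, 14.5 and 3.91 CPM in WT and 1.65, 3.01 and 1.75 CPM in KO neurospheres. Hdac7, a histone deacetylase, had -0.78 (p 0.00160), with 89.6, 92 and 98.8 CPM in WT and 70.2, 66.7 and 58.8 CPM in KO neurospheres. Tusc1 and Fbxl7 had -3.75 and -2.72, and Msl3l2, whose WT neurosphere lines were all at 0, had 7.60, 9.59, 2.92, 3.82 and 9.81 CPM in KO MEFs and 2.48, 3.01 and 0.700 CPM in KO neurospheres. None of the 8 passed edgeR's adjustment over all genes tested.

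**Figure D5:**
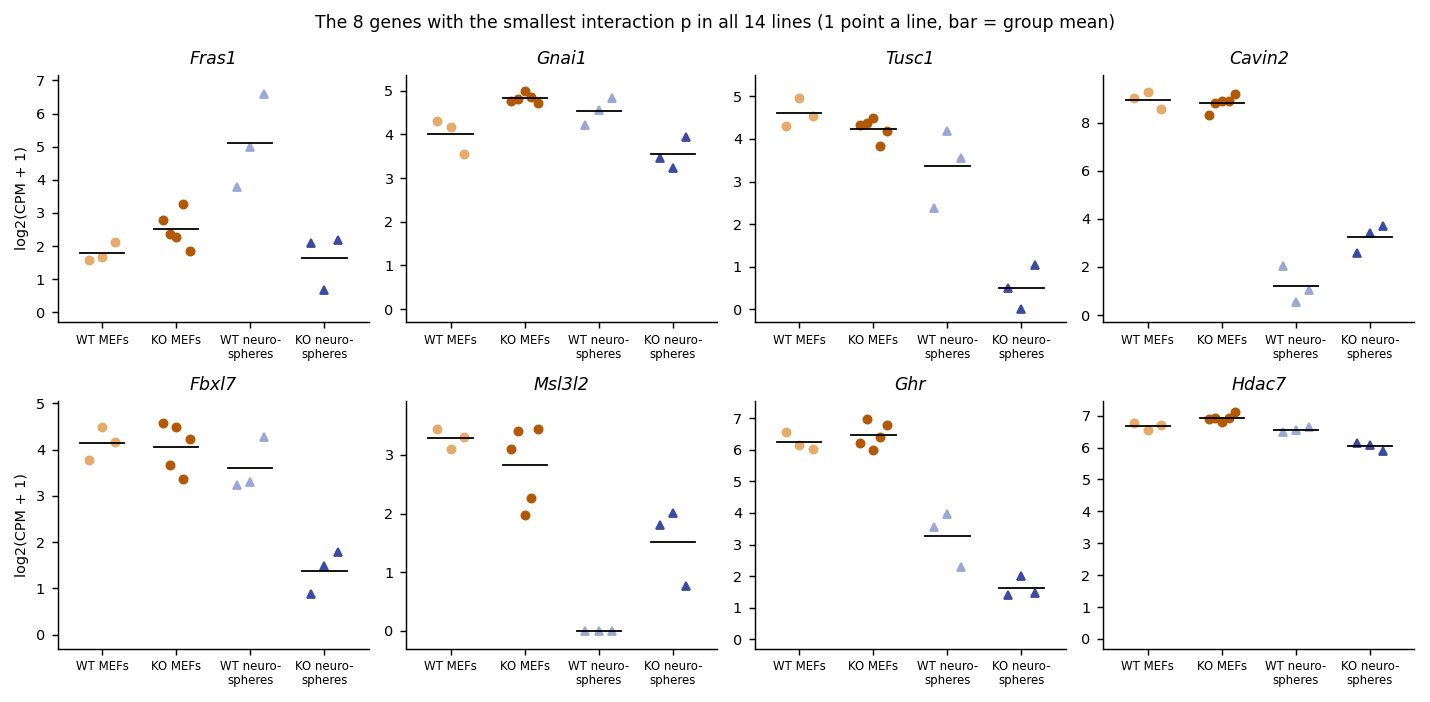
Level of the 8 genes with the smallest interaction p in all 14 lines, as log2(CPM + 1) on the vertical axis, 1 point a line with a bar at each group mean. Every KO neurosphere line lies below every WT neurosphere line for Fras1 and Gnai1, and every KO MEF line lies above every WT MEF line for Gnai1. The genes were picked on these same values, so such gaps follow in part from the choice.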

How the data were processed

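QuantSeq 3′ libraries of 14 mouse lines were quantified by the authors with Salmon 1.1.0, per the submitters' processing notes, and deposited as estimated counts and TPM per transcript. The genome build is not given in the sources used here. Estimated counts were summed per gene through GENCODE M21 (GRCm38) by transcript name or ID and rounded. Of 116945 transcripts in each file, 115560 matched by name, 385 by ID and 1000 did not match (0.251% to 0.425% of counts). Libraries held 1669406 to 3296178 gene counts.

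KO neurospheres (3) were tested against KO MEFs (5) with edgeR 4.0.16 (R 4.3.3): default low-count filter, TMM scaling, robust quasi-likelihood test, Benjamini-Hochberg adjustment, threshold 0.05. The WT lines were tested the same way, and the interaction of genotype and cell type over all 14 libraries. edgeR is also in the submitters' processing notes. Deposited TPM served only for an alternative with limma 3.58.1 on log2(TPM + 1), and DESeq2 1.42.0 was another. A gene without counts in a group was set to 3 counts over the group. Counting intervals are 95% intervals and cover counting error only. Library numbers were taken from the labels. The method was tested on simulated counts: for KO neurospheres against KO MEFs, with 11413 genes, it found 71% of 100 genes changed 4-fold and 5% of 100 changed 2-fold, with 6 false among 82 calls. Few genes were changed there, whereas 51.6% passed in the measured data, and the adjusted threshold depends on that share. The 71% and 5% therefore do not carry over to the measured comparison. For the interaction, with 12113 genes, it found 33% and 1%.

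The genes named were H3f3a and H3f3b, the largest passing differences (10 higher and 10 lower genes, with a mean of 50 CPM or more in the higher group), 4 or fewer passing members of each list with 10 CPM or more, and the 8 genes with the smallest interaction p. Further list members were chosen after their values were seen, and a few genes that the rule covers are not reported here. The members, the 48 lists and the motifs were chosen with earlier results of these data known. Promoter sequences are RefSeq's for GRCm38.p6, 250 bases before to 50 after each start.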

Additional observations from a re-analysis of the deposited data

Results flagged for a closer look

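A single KO MEF line lay far from the other 4 in 38 of the 183 named genes tested, by a gap above 0.71 of the group's range (Dixon's rule). Chance marks about 1 in 20 groups of normally distributed values this way. That rate does not apply here, because many of the genes were named after their values were seen. A further limit is that 6 of the 38 have counts in 1 line only, which meets the rule by construction. Of the 48 summed lists only 12 were judged, and none of those met the rule. Some sums that were not judged had KO MEFs 3 far out. Cross-linking and proteoglycan genes summed to 23440 CPM there (15930 to 17370 in the other 4). Cadherins and neural adhesion genes summed to 1065 CPM (2453 to 2881). In other sums the line lay inside the range, as for immediate early genes at 1776 CPM (1448 to 2250). KO neurospheres have 3 lines and were not judged. KO MEFs 3 was the distant line in 29 of the 38 genes, and the same line stood apart on the second principal component. In some sums WT MEFs 2 lay beside it and away from the other MEF lines. Brain matrix genes summed to 857 CPM in KO MEFs 3 and 811 CPM in WT MEFs 2. The other MEF lines held 2414 to 2773 CPM. Neural factors summed to 1372 and 1627 CPM, against 472 to 693 CPM. In collagen chains WT MEFs 2, at 18970 CPM, lay between WT MEFs 1 and 3, at 18700 and 21060 CPM. The cause was not tested. The values below are CPM in the distant line, with the range of the other 4 lines in brackets.

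Matrix and secreted protein genes were highest in KO MEFs 3, with Col3a1 at 4891 (959 to 2042), Fn1 at 3997 (2786 to 3002), Lox at 4339 (2037 to 2167), Ogn at 1213 (33 to 77.7) and Timp3 at 8705 (2076 to 2716). Of ligands, receptors and secreted antagonists, KO MEFs 3 held Bmp4 at 510 (31.8 to 75), Fgf10 at 57.3 (3.77 to 12.4), Cxcl12 at 813 (172 to 218), Dkk2 at 159 (64.5 to 89.4), Dkk3 at 163 (46.6 to 78.4), Sfrp2 at 590 (5.9 to 35.2), Wnt7b at 1.46 (0 to 0.377), Dll1 at 2.43 (0 to 0.685) and Fgfr3 at 6.32 (0 to 1.37). Developmental transcription factors and receptors that act on genes were high there too, with Hoxd13 at 209 (4.16 to 23), Osr1 at 153 (24.1 to 36.2), Zeb1 at 174 (89.4 to 102) and Rarg at 147 (44.1 to 58.4). Hoxd13 and the other distal Hox genes mark the end of the limb, and Osr1 marks mesenchyme. Other genes highest in KO MEFs 3 were Map2 at 80.2 (8.33 to 13.4), Itgb8 at 33 (5.28 to 9.67), Cdkn1b at 102 (52.1 to 58.6), H2afv at 118 (33.2 to 57.7) and C4b at 2.92 (no count in the other 4).

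The lowest values in KO MEFs 3 were Hes1 at 136 (236 to 274), Hoxc6 at 33 (113 to 135), Npm1 at 1829 (2709 to 3043), Slc2a1 at 53.4 (105 to 125), Trp53 at 26.2 (46.9 to 49.4) and mt-Co1 at 1640 (1827 to 1879). Hoxc6 and Hoxd13, of different Hox clusters, thus stood at opposite ends of the KO MEF range in the same line.

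In KO MEFs 2, the Aurora kinase gene Aurka at 65.4 (42.8 to 48) and the brain matrix gene Tnr at 1.03 (no count in the other 4) were highest. Foxc2 was lowest in KO MEFs 1, at 12.8 (34 to 41.5). In KO MEFs 4, Bcas1 at 0.347 (no count in the other 4) and Nrarp at 4.16 (0 to 0.755) were highest. In KO MEFs 5, Fgf1 at 1.13 (no count in the other 4), Slc6a11 at 0.377 (no count in the other 4), Sox8 at 0.377 (no count in the other 4) and Stmn2 at 17 (6.8 to 8.91) were highest. Values under 3 CPM here rest on a handful of counts in 1 library.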

How the results depend on the processing

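Of 11413 genes, 5892 passed for KO neurospheres against KO MEFs (2904 higher, 2988 lower). edgeR's test against a fold of 2 called 2740 (1389 higher, 1351 lower), and the fit with the replicate block 3295 (1588 higher, 1707 lower). Same-numbered KO lines did not deviate together (correlations -0.014, -0.094 and -0.091), which gives no sign that equal numbers pair the lines. It cannot exclude pairing, because an effect of the embryo need not show in both cell types. Leaving out 1 line gave 4884 (without KO neurospheres 1) to 6223 (without KO MEFs 3) genes. The other alternatives gave 4070 (adjusted p under 0.01) to 6372 (all 14 libraries in 1 fit) genes. For WT lines 4614 passed, with 2296 (1189 higher, 1107 lower) against a fold of 2 and 2677 (1359 higher, 1318 lower) at an adjusted p under 0.01. Leaving out 1 WT line gave 3414 to 5206. The interaction called 0 genes, and 3 with DESeq2 (Fras1, Gnai1 and Pcdha12). H3f3b passed without KO MEFs 3 (log2 difference 0.73, edgeR adjusted p 0.00477) and without KO MEFs 3 and KO neurospheres 2, a choice made after seeing the data (0.77, edgeR adjusted p 0.00532). Leaving out 1 line gave H3f3b 0.44 to 0.73. The log2 differences that changed sign belong to genes that did not pass: Ezh2 ranged from -0.37 to 0.076 and Hira from -0.10 to 0.11 when 1 line was left out, and without both lines they were 0.045 and 0.20. Hmgcs1 ranged from -0.23 (without KO neurospheres 3) to 0.74. Of the single genes followed, 38 no longer passed with the replicate block, 55 against a fold of 2 and 13 with limma on log2(TPM + 1). The cause of these changes was not tested. Depth limits low genes: a gene without counts in KO neurospheres may be present at up to 0.432 CPM.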
